A study of Mus musculus with 38 samples.

Results

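Chemokines are small secreted proteins that direct the movement of leukocytes, and chemokine receptors are the membrane proteins on the leukocytes that read them. The 50 genes described here comprised 31 chemokine ligands and 19 chemokine receptors in spleen, measured on 38 two-colour microarrays from 6 inbred mouse strains. A gene was included when a probe on the arrays, named through its RefSeq accession, carried exactly 1 gene symbol made of Ccl, Cxcl, Ccr or Cxcr and a number, or beginning with Cx3c, Xcl, Xcr, Ackr or Ccrl. Cxcl13 and the Ccr4-NOT genes were left out. These 50 were drawn from 6518 probes with 1 gene symbol and from 21618 distinct probes in all, and 17 of the 67 mouse genes that the rule covers in RefSeq, Ccl7, Cxcl11, Cxcl16, Cxcr1 and Cxcr6 among them, were not matched to a probe.

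Each array compared spleen RNA of a male mouse given an X-ray dose of 10 rad, which is low, with that of a sham-exposed male of the same strain, both collected 3.5 hours later. Strains are called A/J, B6.C, Balb/C (BalbxJ in the labels), C3H/HeJ (C3H), C57Bl6/J (BI6Jx) and DBA/2J, and no mouse is labelled as carrying an engineered allele. There were 8 arrays for each of A/J, B6.C and Balb/C, 6 for C3H/HeJ, and 4 for each of C57Bl6/J and DBA/2J. Every strain had equal numbers of arrays carrying the irradiated RNA in the red dye Cy5 and in the green dye Cy3. The paper states that mice were paired at random and each pair was hybridised again with the dyes exchanged, but the labels do not tell which arrays repeat a pair. The 4 arrays of C57Bl6/J and of DBA/2J are fewer than the paper's minimum of pairs per strain, each exchanged, would give. Whether every pair has its exchange among these arrays is therefore not known. The labels give ages of 10 to 14 weeks.

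In the spleen, chemokines lay out the tissue. Cxcl12 and its receptor Cxcr4 hold B cells and plasma cells in place, Ccl19 and Ccl21 draw T cells and dendritic cells carrying Ccr7 into the T cell zone, and B cells enter follicles through Cxcr5. Other chemokines are made on demand: Ccl2 recruits monocytes through Ccr2, Cxcl1 and Cxcl2 recruit neutrophils through Cxcr2, and Cxcl9 and Cxcl10, induced by interferon, recruit activated T cells through Cxcr3. Atypical receptors such as Ackr1 and Ackr3 bind chemokines without classical signalling and shape how much ligand is free.

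The deposited values are signed scores, and the sources used here do not give their scale, log base or dye direction. Each array was centred on its median and, on arrays with irradiated RNA in Cy3, multiplied by -1, which is called turning. A positive value then means relatively more RNA in the irradiated mouse if the score is Cy5 over Cy3, and the opposite if it is Cy3 over Cy5, so values are called positive or negative and no fold change is given. In each strain, the response of a gene is the mean of its 2 orientations after turning, and its dye offset is the mean of the same 2 orientations without turning, which is what both orientations share. In whole spleen RNA, fewer cells of a type and less RNA per cell cannot be told apart.

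Arrays held values for 10941 to 19860 of the 21618 probes. Arrays 97 (C57Bl6/J), 50 and 53 (both B6.C) correlated below -0.3 with at least 3 arrays of their own dye orientation, which leaves their direction unsettled, so results are also given with these 3 arrays turned or left out. The signed scores were taken as ratios, which hold no level, so the tissue could be checked only through detection. Of markers on the arrays, 6 of 7 for B cells, 6 of 7 for neutrophils and 6 of 7 for stroma and endothelium had a value on at least 30 arrays. But so did only 3 of 7 T cell markers and as many as 8 of 9 markers of the neighbouring pancreas.

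For 40 of the 50 genes RefSeq gave a promoter, from 250 bases before to 50 bases after the start of the gene on GRCm38.p6. Shown here are the promoters of the neighbouring neutrophil attractants Cxcl1 (chr5:90890995-90891294, plus strand) and Cxcl2 (chr5:90903649-90903948, plus strand), of the interferon-induced Cxcl10 (chr5:92348840-92349139, minus strand), because inflammatory chemokines of this kind are known to be induced through NF-kB or interferon, and of Ccl28 (chr13:119623569-119623868, plus strand), because it was the 1 gene of the set that passed a test. Each is written from 5′ to 3′ on the strand of its gene, with capitals marking matches on either strand to GGGNNTTTCC, the letters of an NF-kB motif, or GAAANNGAAA, those of an interferon regulatory factor motif.
Cxcl1: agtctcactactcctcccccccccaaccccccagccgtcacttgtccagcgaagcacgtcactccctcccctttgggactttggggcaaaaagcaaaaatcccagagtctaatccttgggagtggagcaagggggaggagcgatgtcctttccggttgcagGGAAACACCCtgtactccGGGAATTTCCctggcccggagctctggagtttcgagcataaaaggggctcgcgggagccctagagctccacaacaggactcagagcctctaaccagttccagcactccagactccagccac
Cxcl2: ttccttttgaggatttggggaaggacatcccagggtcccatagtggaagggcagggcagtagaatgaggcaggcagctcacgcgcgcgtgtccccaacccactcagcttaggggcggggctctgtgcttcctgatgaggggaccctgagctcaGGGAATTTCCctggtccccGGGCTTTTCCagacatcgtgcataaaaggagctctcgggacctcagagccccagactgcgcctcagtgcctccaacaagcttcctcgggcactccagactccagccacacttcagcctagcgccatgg
Cxcl10: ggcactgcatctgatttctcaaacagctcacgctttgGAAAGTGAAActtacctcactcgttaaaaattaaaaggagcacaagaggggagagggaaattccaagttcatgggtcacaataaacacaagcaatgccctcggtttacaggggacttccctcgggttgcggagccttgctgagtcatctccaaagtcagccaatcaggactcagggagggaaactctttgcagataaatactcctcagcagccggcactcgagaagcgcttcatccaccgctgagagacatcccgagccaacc
Ccl28: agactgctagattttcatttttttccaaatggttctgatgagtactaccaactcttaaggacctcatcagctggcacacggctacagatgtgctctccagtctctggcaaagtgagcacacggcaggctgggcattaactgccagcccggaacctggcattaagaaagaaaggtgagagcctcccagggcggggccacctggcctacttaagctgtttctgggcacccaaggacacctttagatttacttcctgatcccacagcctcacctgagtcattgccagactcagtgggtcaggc
The NF-kB letters occurred in the promoters of 4 of 24 ligands (16.7%), namely Cxcl1, Cxcl2, Ccl20 and Ccl9, in 1 of 16 receptors (6.25%), which was Ccr3, and in 1.89% of the 27025 genes of the table. Cxcl1 held 2 such matches, with first bases at -89 and -71 from the start, and Cxcl2 held 2, at -97 and -78. The interferon regulatory factor letters occurred in 3 of 24 ligands (12.5%), which were Cxcl10, with its match at -213, Ccl19 and Cxcl14, in 0 of 16 receptors, and in 3.99% of all genes. In Ccl28 neither set of letters was found. Other spellings of either motif were not searched, so a promoter without capitals for a motif may still hold another form of it. A match is a description of the letters and not evidence of binding, and the values of these genes are given with their classes below.

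How many of these genes could be measured was the first question. Among the 50 genes, 10 (20.0%) had a value on all 38 arrays, compared with 13.1% of all probes, and the median gene of the set had a value on 33 arrays, against 32 for all probes. Among the ligand classes, the homeostatic ligands, those made constantly by spleen stroma and epithelia, had the highest median, 37 arrays. All 9 had values on at least 31 arrays, and Ccl21a, Ccl21b, Ccl21c and Ccl27a had them on all 38. Inflammatory CC ligands were covered less. Of 12, 4 had a value on fewer than 19 arrays, among them Ccl11 with 12, Ccl24 with 14 and Ccl1 with 15, and none had a value on every array. Among receptors, Ccr2, Ccr8, Cx3cr1, Ackr1 and Ackr3 had a value on all 38 arrays, whereas Ccr9, the receptor of gut-homing T cells, had one on 5 and Ccr4 on 14. The paper's methods state that spots of low expression were removed, so a missing value is not a 0.

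**Figure D1:**
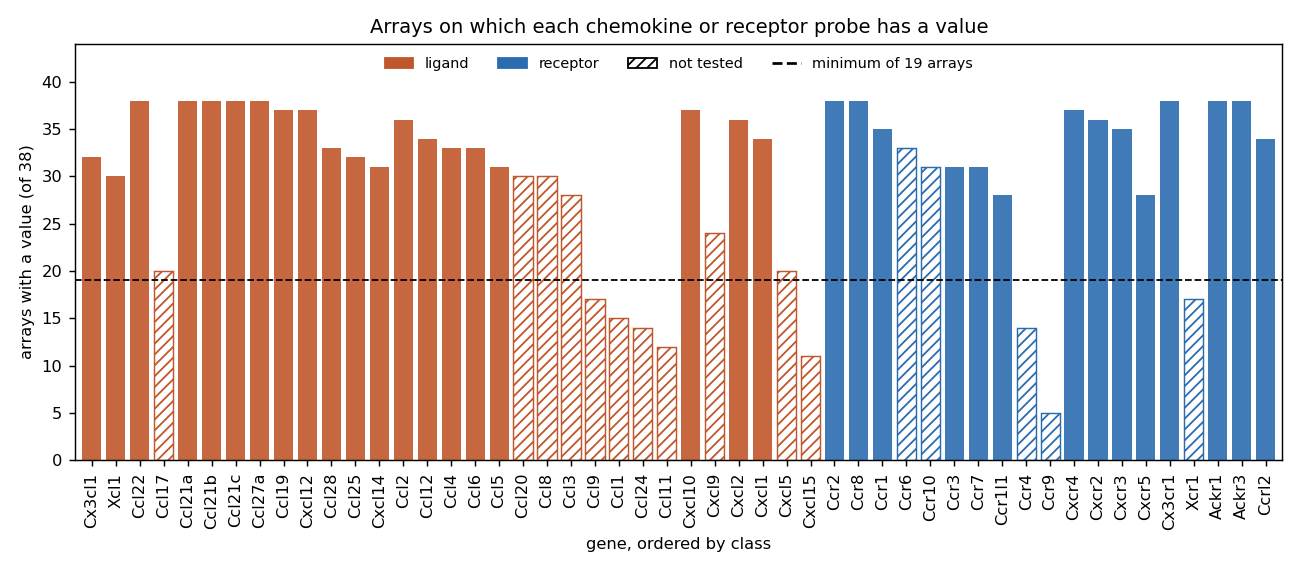
Number of arrays with a value (vertical axis, of 38) for each of the 50 genes (horizontal axis, ordered by class), ligands in orange and receptors in blue, with hatched bars for the 16 genes that were not tested and a dashed line at 19 arrays. Homeostatic ligands such as Ccl21a reach 38 arrays, and Ccr9, on 5 arrays, is the least covered.

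A gene was tested if 19 or more arrays held a value for it and no strain lacked it in either dye orientation. By this filter, 34 genes were tested, 20 ligands and 14 receptors, out of 14513 probes. Of the 16 others, 8 had values on fewer than 19 arrays and 8 lacked a strain or orientation.

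Across strains, no chemokine or receptor passed the test of a difference between irradiated and sham-exposed spleen. With limma over 6 strain values and Benjamini-Hochberg adjustment over all probes, 0 of 34 genes passed an adjusted p of 0.05, as did 0 (0%) of all 14513 probes. At an unadjusted p under 0.05 there were 3 genes (8.82%), the CC ligand Ccl6, made by myeloid cells, and the receptors Cxcr4 and Ackr3, against 1191 probes (8.21%), so that the set stood near the background. Means were positive for 12 of 20 ligands and 7 of 14 receptors, compared with 48.7% of all probes. The median over ligands was 0.0548 and that over receptors 0.0297, beside -0.00675 for all probes, and individual means ran from -0.338 (Ccl5) to 0.517 (Ccl6). With the 3 unsettled arrays turned, the median over receptors was -0.0535 and that over ligands 0.0674. A single gene had the same sign in all 6 strains (2.94%), Ccl6, against 4.27% of all probes. Even for Ccl6, the 2 dye orientations lay on the same side after turning in C57Bl6/J alone.

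**Figure D2:**
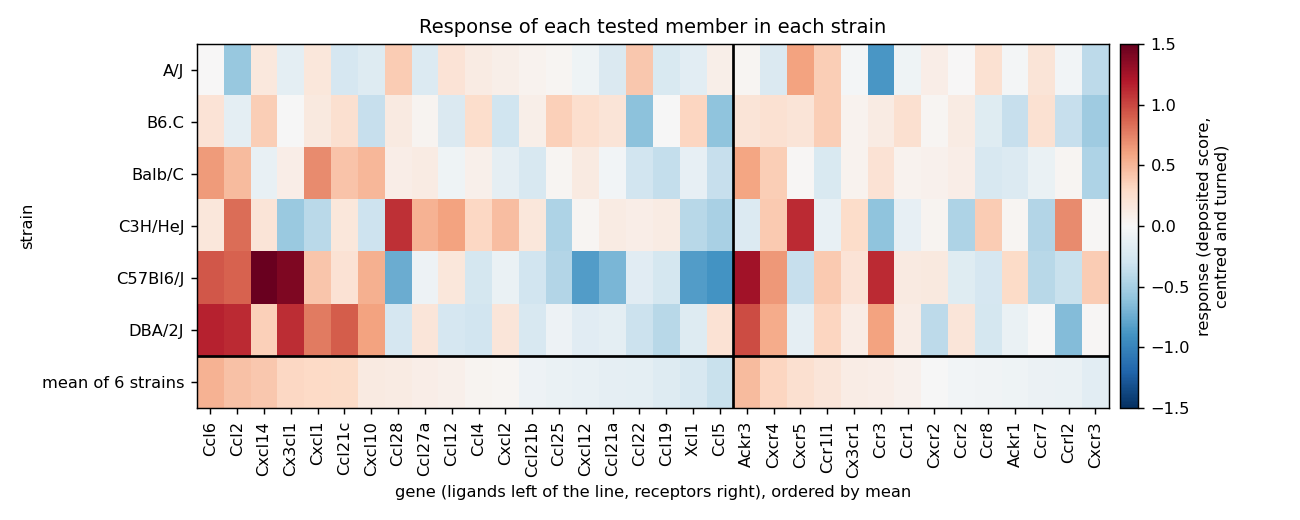
Response (colour, deposited score after centring and turning, from -1.5 in blue to 1.5 in red) of the 34 tested genes (columns, ligands left and receptors right of the line, each ordered by mean) in the 6 strains and as the mean of the strains (rows). The response of Ccl6, as the mean of its 2 orientations, is positive in all 6 strains. Every value above 1 lies in the C57Bl6/J, DBA/2J or C3H/HeJ row, the strains with the fewest arrays.

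Ligands of the inflammatory CC class had the widest means. Ccl6 had responses of 0.00786 in A/J, 0.206 in B6.C, 0.639 in Balb/C, 0.171 in C3H/HeJ, 0.927 in C57Bl6/J and 1.15 in DBA/2J, a mean of 0.517 ± 0.461 (SD over 6 strains). The highest values came from single arrays with the irradiated RNA in Cy5, 3.53 on array 34 of DBA/2J and 2.99 on array 36 of Balb/C, and the 33 arrays with a value overlapped 0 widely, 22 being positive and 11 negative. Both orientations lay on the same side after turning in C57Bl6/J alone. The Cy5 and turned Cy3 means were 0.672 and -0.6565 in A/J, 1.486 and -0.207 in Balb/C and 2.334 and -0.0275 in DBA/2J. In B6.C and C3H/HeJ the Cy5 means were -0.000413 and -0.0027, beside turned Cy3 means of 0.412 and 0.344. The dye offset of Ccl6 was 0.4315 beside its response of 0.517. Its unadjusted p was 0.0147 and its adjusted p 0.567 in limma, and the mean was 0.366 with the unsettled arrays turned. When those arrays were left out, Ccl6 lost a cell of the design and could not be tested.

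Ccl2, the main attractant of monocytes, had strain values of both signs, but strains did not differ in the F test over arrays described below (adjusted p = 0.326). Its response was -0.563 in A/J and -0.150 in B6.C, but 0.479 in Balb/C, 0.839 in C3H/HeJ, 0.891 in C57Bl6/J and 1.12 in DBA/2J. The mean of 0.436 ± 0.660 (SD over 6 strains) did not pass over all strains (adjusted p = 0.567). In A/J, 6 of 8 arrays were negative after turning, with a median of -0.510 and a range of -1.84 to 0.780, whereas in C3H/HeJ 5 of 6 were positive, with a median of 0.790 and a range of -0.238 to 2.22. In Balb/C 3 arrays were positive and 3 negative, with a median of -0.329. Its Cy5 mean was 1.883 and its turned Cy3 mean -0.926. In C57Bl6/J the 4 arrays read -0.693, 0.583, 1.19 and 2.49, and in DBA/2J -0.458, 0.501, 0.823 and 3.61. Cy5 means were 1.836 in C57Bl6/J and 2.216 in DBA/2J, whereas turned Cy3 means were -0.0551 and 0.0215. The dye offset of Ccl2, 0.517, was larger than its mean response. Thus each of these strains had arrays on both sides of 0.

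Ccl5, which attracts T cells and natural killer cells, had the lowest mean, -0.338 ± 0.422 (SD over 6 strains), with strain values from -0.893 in C57Bl6/J to 0.215 in DBA/2J and 4 of 6 negative (adjusted p = 0.567). Turning the 3 unsettled arrays left a mean of -0.00243. Ccl4 (0.0354) and Ccl12 (0.0742) lay near 0. Ccl8, a relative of Ccl2, was not tested because C3H/HeJ had no value in 1 orientation, but was negative in the 5 strains measured in both, from -0.945 in Balb/C to -0.0282 in C57Bl6/J. Ccl20, the ligand of Ccr6, was likewise untested and was positive in its 5 strains, although only between 0.0236 and 0.181. Ccl1 was negative in 4 of 4 strains, from -0.151 to -0.0413. Ccl3 ran from -0.468 to 0.219 over 5 strains and Ccl9 from -0.0154 to 0.462 over 4. Ccl24 spanned -0.130 to 0.358 over 3 strains, and Ccl11 had both orientations in Balb/C alone, at 0.0698.

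Of the homeostatic ligands, 4 of 9 had positive means and 0 passed. Cxcl14, made by epithelia and stroma, had the highest mean, 0.408 ± 0.556 (SD over 6 strains, adjusted p = 0.567), of which 1.49 came from C57Bl6/J and -0.108 to 0.364 from the other strains. The mean was 0.192 without C57Bl6/J and 0.132 without the 3 unsettled arrays. Its single arrays ran from -7.76 to 6.93 after turning. The T zone ligands Ccl19 (-0.194 ± 0.209), Ccl21a (-0.130 ± 0.316) and Ccl21b (-0.0761 ± 0.199) had negative means and Ccl21c a positive one (0.285 ± 0.378, each SD over 6 strains). The Ccl21 genes are near-identical copies whose probes may take up each other's RNA, so their values are uncertain one by one. Over 38 arrays, Ccl21a and Ccl21b correlated with r = 0.263, and Ccl21c with r = -0.0102 and -0.0981 to them. Cxcl12, the retention signal read by Cxcr4, had a mean of -0.112 ± 0.384 and its lowest strain value, -0.835, in C57Bl6/J. There the unsettled array 97 was its lowest array, at -2.05 after turning. Ccl25 and Ccl27a had means of -0.0948 and 0.0992.

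Ccl28, a mucosal attractant of plasma cells and of other cells with Ccr10, was the 1 member to pass a test, in 1 strain. In C3H/HeJ its response was 1.09 (SE 0.270, adjusted p = 0.0246 in limma over arrays), where 361 probes (2.49%) passed. As 1 of 34 tested genes (2.94%), the call left the set near the background there. Of the 6 C3H/HeJ arrays, 4 held a value for it, 0.736 and 0.325 with the irradiated RNA in Cy5 and 1.83 and 1.48 after turning with it in Cy3, so that all 4 were positive and the 2 orientations did not overlap. Since arrays of exchanged dyes share mice, p-values over arrays are too small. The call was kept with the 3 unsettled arrays turned (adjusted p = 0.0281) or left out (0.0102), with no minimum of arrays (0.0246) and with at least 30 arrays (0.0479). It was lost without array 26 (adjusted p = 0.167), 27 (0.151) or 28 (0.0729), with the values as deposited (0.944), after scaling every array to one spread (0.525) and with a single dye offset for all strains (0.0592).

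In the other strains Ccl28 took both signs. All 4 C57Bl6/J arrays were negative after turning, -0.230, -0.435, -0.713 and -1.58, and their response was -0.740 (adjusted p = 0.359). A/J had 6 positive arrays of 6, from 0.0587 to 1.11 with a median of 0.255. B6.C had a median of 0.247 with a range of -0.737 to 0.956, and Balb/C a median of 0.147 with a range of -0.762 to 0.706. DBA/2J read -0.950, -0.540, 0.115 and 0.379. Over all strains the mean was 0.120 ± 0.615 (SD, adjusted p = 0.832), and without C3H/HeJ it was -0.0748.

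Marker genes of other cells in C3H/HeJ are set beside the Ccl28 value, since whole spleen was used. The median response there was 0.371 over the 7 neutrophil markers tested (range -1.22 to 0.768) and 0.202 over the 3 T cell markers (-0.0564 to 0.888). It was 0.178 over the 8 pancreatic markers (-0.0939 to 0.996), 0.177 over the 4 red cell precursor markers (-0.193 to 0.327) and 0.153 over the 3 adipose markers (-0.14 to 0.156). For the 3 NK cell markers it was -0.0546 (-0.63 to 0.106) and for the 7 B cell markers -0.0709 (-0.524 to 0.613). The 6 stromal and endothelial markers had -0.213 (-0.726 to 0.422), the 5 macrophage and monocyte markers -0.277 (-0.749 to 0.630) and the 4 dendritic cell markers -0.471 (-0.949 to 0.336). Their part in the Ccl28 value was not tested.

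Neither the tested attractants of neutrophils, Cxcl1 and Cxcl2, nor Cxcl10, an attractant of activated T cells, passed. Cxcl1 had a mean of 0.304 ± 0.436 (SD over 6 strains, adjusted p = 0.567) and was positive in 5 of 6 strains, with 0.713 in Balb/C and 0.780 in DBA/2J highest and -0.402 in C3H/HeJ lowest. In Balb/C and DBA/2J its orientations lay on opposite sides after turning. Its Cy5 means there were 1.673 and 2.035, and its turned Cy3 means -0.246 and -0.475. The dye offset of Cxcl1, 0.553, was larger than its response. Its neighbour Cxcl2, with the same letters in its promoter, had a mean of 0.0345 ± 0.269 and was positive in 3 of 6. Cxcl10 had a mean of 0.130 ± 0.458 and was positive in Balb/C (0.497), C57Bl6/J (0.538) and DBA/2J (0.598) and negative in A/J (-0.195), B6.C (-0.343) and C3H/HeJ (-0.315). Its orientations lay on opposite sides after turning in B6.C and C3H/HeJ, and on the same side in the other strains. Its Cy5 means were -1.046 in B6.C and 1.726 in C3H/HeJ, and its turned Cy3 means 0.360 and -2.355. Cxcl9, also induced by interferon, was not tested. Its strain value of 2.24 in A/J rested on array 87, which read 10.3 while the other 3 A/J arrays with a value lay between -0.721 and -0.172, and its other strains lay between -0.155 and 0.0130. Of the untested neutrophil attractants, Cxcl15 had both orientations in 2 strains, at 0.312 in Balb/C and 2.60 in B6.C. The latter rested on array 52, which read 5.97 while the other 3 B6.C arrays with a value lay between -1.76 and -0.144. Cxcl5 ran from -0.197 to 0.745 over 5 strains. Xcl1, which lymphocytes secrete to attract cross-presenting dendritic cells, had a mean of -0.234 ± 0.381, Cx3cl1, a membrane-bound ligand of endothelium, one of 0.315 ± 0.769, and Ccl22, made by dendritic cells, one of -0.149 ± 0.356. Ccl17, the partner of Ccl22 and untested, had its lowest value, -1.33, in C3H/HeJ, where its orientations lay on opposite sides after turning, at -4.30 on the Cy5 arrays and 1.65 on the Cy3 arrays.

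Genes that lie side by side in the RefSeq order had means of either sign in most neighbourhoods. Ccl2 and Ccl12 were both positive in their neighbourhood (2 tested), as were Cxcl1 and Cxcl2 in theirs. Among the neighbours Ccl5, Ccl6 and Ccl4, 2 of 3 were positive, with means from -0.338 to 0.517, and of Ccl27a, Ccl21b, Ccl19 and Ccl21a, 1 of 4 was. Among the receptor neighbours Ccr1, Ccr1l1, Ccr3 and Ccr2, 3 of 4 were positive, with means from -0.0393 to 0.185.

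Among receptors, the 2 with an unadjusted p under 0.05 were Cxcr4 and Ackr3, which share the ligand Cxcl12. Cxcr4 had responses of -0.221 in A/J, 0.232 in B6.C, 0.367 in Balb/C, 0.392 in C3H/HeJ, 0.646 in C57Bl6/J and 0.551 in DBA/2J, a mean of 0.328 ± 0.306 (SD over 6 strains, adjusted p = 0.567). Its arrays were far wider than this mean, from -5.07 to 5.52 after turning with 22 positive and 15 negative. The mean was 0.00511 without the 3 unsettled arrays and 0.100 with them turned. Ackr3, the atypical receptor that removes Cxcl12, had responses of 0.0260 in A/J, 0.192 in B6.C, 0.593 in Balb/C, -0.204 in C3H/HeJ, 1.26 in C57Bl6/J and 0.981 in DBA/2J, a mean of 0.475 ± 0.572 (SD over 6 strains, adjusted p = 0.567). Its highest arrays were those of Ccl6, 3.34 on array 34 and 3.23 on array 36. Without the unsettled arrays its mean was 0.374, and with them turned 0.273.

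The count of 3 genes at an unadjusted p under 0.05 moved with single arrays and strains. It was 5 without array 3, 70 or 88, where 8.96%, 9.48% and 10.5% of all probes passed this threshold, and 1 without array 25, 95 or 97, where 8.0%, 8.60% and 3.92% did. It was 6 without A/J, beside 12.9% of probes, and 1 without C57Bl6/J, beside 5.17%. With the unsettled arrays turned or left out it was 0, beside 2.92% and 3.45%.

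Of the remaining receptors, Cxcr5, which guides B cells to follicles, had a mean of 0.243 ± 0.536 (SD over 6 strains), of which 1.12 came from C3H/HeJ. There 3 arrays held a value, -5.75 and -1.35 with the irradiated RNA in Cy5 and 5.79 after turning with it in Cy3, so the orientations were on opposite sides after turning. Ccr1l1, a relative of Ccr1, had a mean of 0.185 ± 0.281, which was -0.0627 with the unsettled arrays turned. Ccr7, which brings T cells and dendritic cells to the T zone, was at -0.0882 ± 0.291, Ccr2 at -0.0393 ± 0.242, Cxcr3 at -0.163 ± 0.359 and Cxcr2, the receptor of Cxcl1 and Cxcl2, at -0.000206 ± 0.196, each as SD over 6 strains. Cx3cr1, a receptor of monocytes, had the smallest SD of the 14 tested receptors, with a mean of 0.112 ± 0.111 and strain values from -0.0269 to 0.275. The atypical receptor Ackr1, which red cells and venules carry, had a mean of -0.0607, and Ccrl2 one of -0.103. Ccr8 (-0.0532 ± 0.285) and Ccr1 (0.0596 ± 0.134) were close to 0. Ccr3 had a mean of 0.0962 ± 0.740, the largest SD of the 14 tested receptors, with strain values from -0.871 in A/J to 1.12 in C57Bl6/J. Of the untested receptors, Ccr6, a receptor of B cells, ran from -0.351 to 0.307, Ccr10 from -0.644 to 0.533, Ccr4 from -0.671 to 0.149 and Xcr1 from -0.125 to 0.447, and Ccr9 had both orientations in B6.C alone, at 0.512.

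For several genes, the part of the score that both dye orientations shared was larger than the response. Cxcr4 was positive without turning on 17 of 18 arrays with the irradiated RNA in Cy5, at a median of 1.70, and on 14 of 19 arrays with it in Cy3, at a median of 1.46. Values of 1 gene that follow irradiation alone would take opposite signs in the 2 orientations before turning. Its dye offset was 1.81 in A/J, -0.162 in B6.C, 2.82 in Balb/C, 1.43 in C3H/HeJ, 2.20 in C57Bl6/J and 2.14 in DBA/2J, a mean of 1.71 ± 1.02 (SD over 6 strains) against its response of 0.328. Ccr3, the eosinophil receptor, had an offset of 1.64 ± 1.26 beside a response of 0.0962, Cx3cl1 one of 1.10 ± 0.920 beside 0.315, and Ackr3 one of 0.628 ± 0.486 beside 0.475. Cxcl14 had an offset of 1.25 ± 2.57, from -2.83 in C3H/HeJ to 4.25 in C57Bl6/J. In B6.C the offsets of these 5 genes lay between -0.395 and -0.0286.

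By limma over 6 strain offsets, 0 of 34 genes and 0 (0%) of 14513 probes passed an adjusted p of 0.05. At an unadjusted p under 0.05 there were 6 genes (17.6%), Cxcr4, Ccr3, Cx3cl1, Ackr3, Cxcl1 and Cxcl12, against 3518 probes (24.2%). Without B6.C, 4 genes passed, Cxcr4 (2.08, adjusted p = 0.0137), Ccr3 (1.98, 0.0230), Cx3cl1 (1.40, 0.0199) and Ackr3 (0.766, 0.0422), where 13.2% of probes did. Without C3H/HeJ, Cxcr4, Ccr3 and Cx3cl1 passed, where 13.8% of probes did. The offset was larger in size than the response for 25 of 34 genes (73.5%) and for 72.8% of all probes, so the set was near the background in this too.

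**Figure D3:**
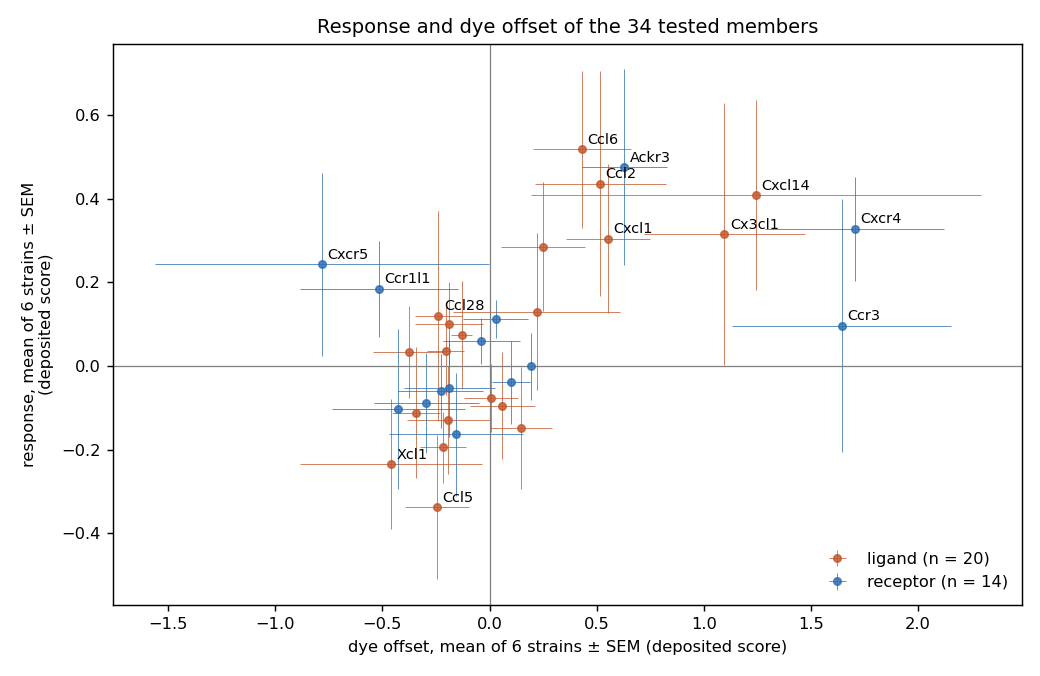
Response (vertical axis) against dye offset (horizontal axis) of the 34 tested genes, both in deposited score as the mean of 6 strains with bars of 1 SEM, ligands in orange and receptors in blue. Cxcr4 and Ccr3 lie farthest right, at offsets of 1.71 and 1.64, while all responses stay between -0.338 and 0.517.

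**Figure D4:**
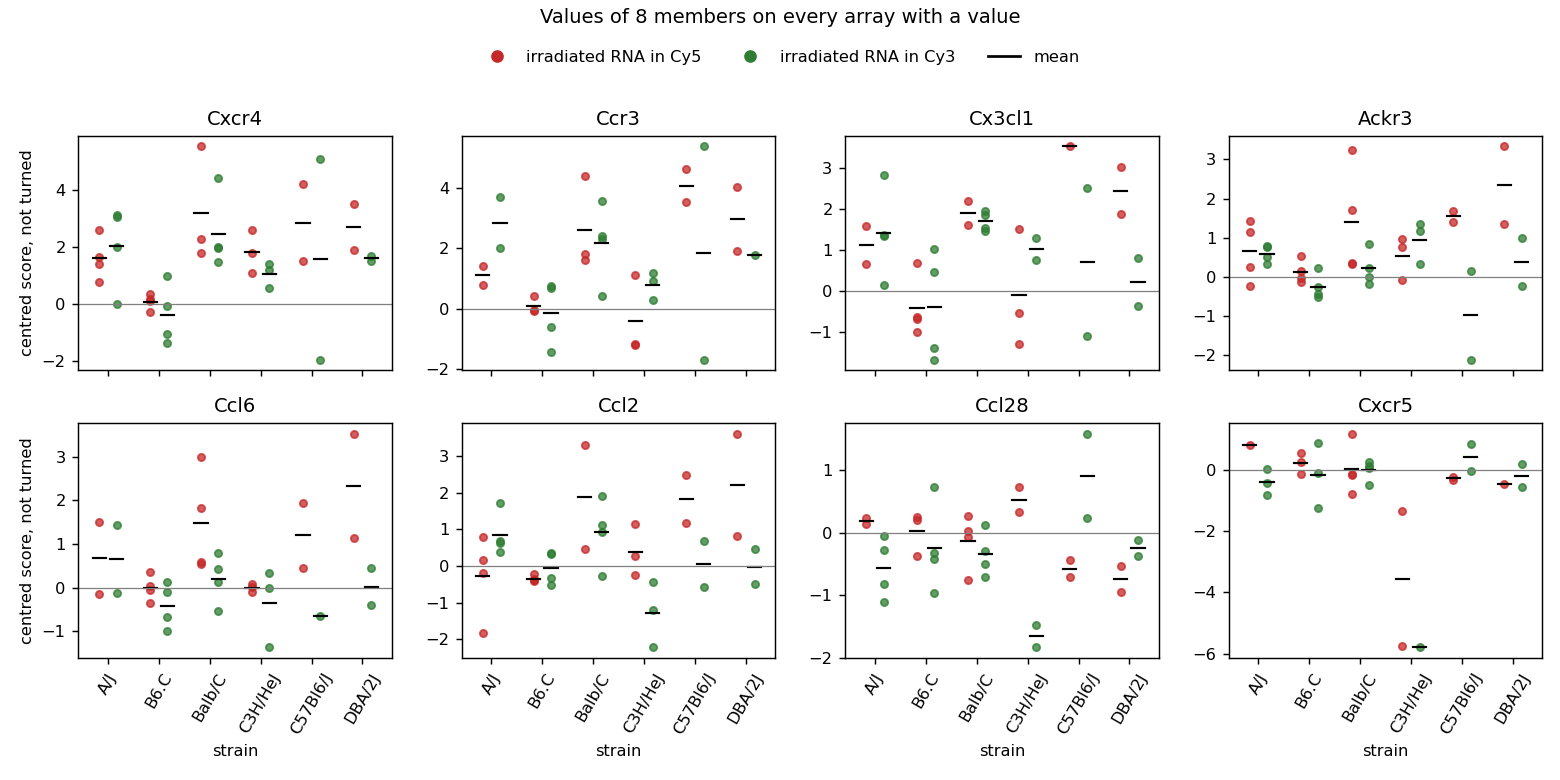
Centred score without turning (vertical axes) of 8 genes on each array with a value, by strain (horizontal axis), with the irradiated RNA in Cy5 in red and in Cy3 in green and black bars at the means. For Cxcr4, Ccr3 and Cx3cl1 red and green points lie mostly above 0 together outside B6.C and, for Ccr3 and Cx3cl1, C3H/HeJ, whereas for Ccl28 in C3H/HeJ the red points (0.325 and 0.736) and the green points lie on opposite sides.

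Both orientations of a strain placed a gene on the same side after turning for 20 of 34 genes (58.8%) in B6.C and 17 (50.0%) in C57Bl6/J, but for 11 (32.4%) in A/J and in C3H/HeJ, 10 (29.4%) in Balb/C and 8 (23.5%) in DBA/2J. All probes did so for 53.6%, 47.2%, 30.9%, 22.5%, 30.3% and 35.0%, in the order B6.C, C57Bl6/J, A/J, C3H/HeJ, Balb/C and DBA/2J.

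Whether strains differed in their response was tested next. By an F test over arrays that used limma's moderated variance, 0 of 34 genes passed, compared with 105 probes (0.723%). At an unadjusted p under 0.05 there were 3 genes (8.82%), against 11.3% of probes, and these were Ccl28, Ccl2 and Ackr3. Their adjusted p was 0.123 for Ccl28, 0.326 for Ccl2 and 0.390 for Ackr3. Without the 3 unsettled arrays Ccl28 passed (adjusted p = 0.0433), where 0.685% of probes did. Without array 95 Ccr3 passed (0.0430), but so did 6.54% of probes. Within a single orientation other genes passed, Cxcl14 (adjusted p = 0.00993) and Ccr3 (0.0346) among arrays with the irradiated RNA in Cy5, where 5.62% of probes did, and Cxcr5 (0.00375) and Cxcl10 (0.0135) among those with it in Cy3, where 6.55% did. No gene passed in both orientations. These p-values are too small as well, for the same reason as within strains.

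Within strains other than C3H/HeJ no gene of the set passed. The probes that did were 0 (0%) in A/J, 48 (0.331%) in B6.C, 2 (0.0138%) in Balb/C, 27 (0.186%) in C57Bl6/J and 0 (0%) in DBA/2J. At an unadjusted p under 0.05 there were 0 of 34 genes in A/J, 1 in B6.C, 3 in Balb/C, 4 in C3H/HeJ, 5 in C57Bl6/J and 5 in DBA/2J. Of all probes, 0.889%, 7.48%, 11.9%, 13.9%, 10.1% and 9.02% did so, in the same order. Calls rested on single arrays where a strain had few. Without array 95, which left the unsettled array 97 alone in its orientation of C57Bl6/J, 7 genes passed there, with Ccr3 (2.89), Cxcr4 (2.40), Cx3cl1 (2.31), Cxcl14 (3.05) and Ackr3 (1.83) positive and Cxcl12 (-1.43) and Ccl21a (-1.34) negative, alongside 23.4% of all probes. A lone array, here and below, is assumed to vary like those of other groups. Without array 83, which left array 34 alone with the irradiated RNA in Cy5, Ccl6 (1.75) and Ccl21c (1.34) passed in DBA/2J, alongside 2.83% of all probes. Without array 25, Cxcr5 (2.22) passed in C3H/HeJ, alongside 5.21%, but it then rested on 1 array in each orientation, array 29 at -1.35 and array 26 at 5.79 after turning, which lie on opposite sides. Without array 29, Xcl1 (-1.32) passed there, alongside 4.41%, with -5.26 and -3.99 on the remaining arrays with the irradiated RNA in Cy5 and 2.04 and 1.95 after turning with it in Cy3, again on opposite sides.

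Ligands and receptors that bind each other are given side by side, for 23 pairs with both on the arrays. Over these pairs, 60 of 107 strain values (56.1%) had ligand and receptor on the same side, and 34 of 60 (56.7%) did over the 10 pairs with both tested. Cxcl12 and Cxcr4 took the same sign in 4 of 6 strains, and parted most in C57Bl6/J, where Cxcl12 was -0.835 and Cxcr4 0.646 and Ackr3 1.26. These 3 values include array 97, whose direction is unsettled and which read -2.05, 1.96 and 2.12 after turning. Array 95, of the same strain and orientation, read 0.326, -5.07 and -0.158. Ccl2 and Ccr2 took the same sign in 2 of 6, with Ccl2 at 0.839 and Ccr2 at -0.461 in C3H/HeJ. Cx3cl1 and Cx3cr1 did so in 4 of 6, Cxcl1 and Cxcr2 in 4, Cxcl10 and Cxcr3 in 4, Ccl21a and Ccr7 in 4, Ccl21b and Ccr7 in 5, Ccl19 and Ccr7 in 3, Cxcl2 and Cxcr2 in 2 and Cxcl12 and Ackr3 in 2. Among the 13 pairs with an untested partner, 26 of 47 strain values (55.3%) were on the same side, and at the extremes Xcl1 and Xcr1 opposed each other in 4 of 4 strains and Ccl3 and Ccr1 in 5 of 5, whereas Ccl17 and Ccl22 each went with Ccr4 in 3 of 3. These are descriptions of values from shared arrays, and some receptors recur in several pairs. No share for genes that do not bind each other is set beside them, so they cannot be compared with a background.

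**Figure D5:**
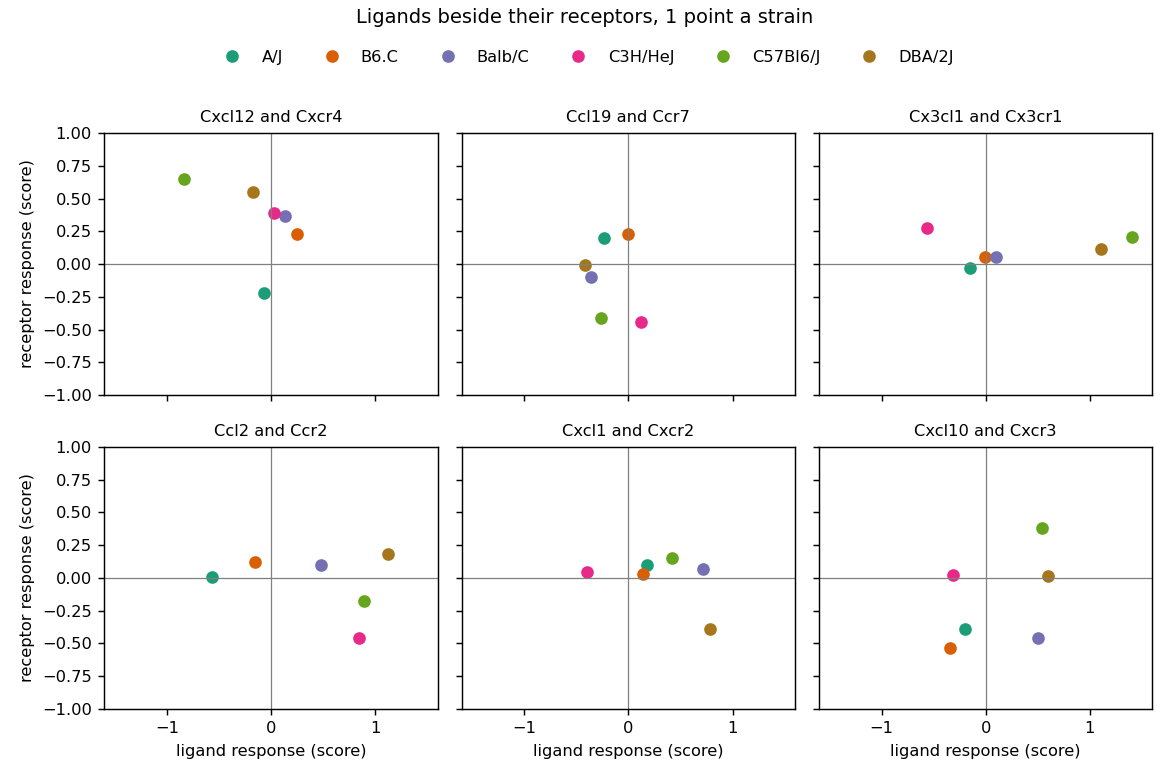
Response of a ligand (horizontal axis) and of its receptor (vertical axis), in deposited score, for 6 pairs with 1 point for each of the 6 strains. In the panel of Cxcl12 and Cxcr4, 5 of 6 points lie above the line at 0 for Cxcr4, and the C57Bl6/J point lies farthest left.

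The genes most alike over arrays were those with large dye offsets. Of 825 pairs of members with at least 19 shared arrays, the 2 with the highest Pearson r after turning were Cx3cl1 with Ccr3 (r = 0.935 over 27 arrays) and Ccr3 with Cxcr4 (r = 0.923 over 31). Without turning r was 0.900 and 0.867, and with the mean of each strain and orientation removed 0.793 and 0.925. The points share arrays, mice and dye, so r is a description.

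No gene of the lists around the chemokines passed over all strains. Of 19 tested genes for receptor signalling and migration, 0 passed over all strains and 10 were positive, with Rasgrp2, which activates integrins, lowest in p (-0.510 ± 0.297 (SD over 6 strains), negative in 6 of 6, adjusted p = 0.567). Of 18 inducers of chemokines 0 passed and 12 were positive, and those with the smallest p were the cytokines Lta (0.438 ± 0.440) and Il1b (0.408 ± 0.461), each positive in 5 of 6 strains. Of 6 other chemoattractants and their receptors, 0 passed and 3 were positive, with the formyl peptide receptors Fpr2 (0.482 ± 0.757) and Fpr1 (0.245 ± 0.299) first. Beside these, 0 of the 7 neutrophil markers passed and 5 were positive (median 0.116), S100a9 among them in 6 of 6 strains (0.523 ± 0.398, adjusted p = 0.567). In the macrophage and monocyte list 2 of 5 were positive (median -0.0491), in that of B cells 4 of 7 (median 0.0114) and in that of stroma and endothelium 3 of 6 (median 0.133), with 0 passing. Their part in the values of Ccl6, Ccl2 and Cxcr4 was not tested. Pancreatic markers had a median of -0.575, with 2 of 8 positive. Prss2 (-0.732), Gp2 (-0.669), Ctrb1 (-0.628), Reg1 (-0.609), Pnlip (-0.541) and Try4 (-0.349) lay below the lowest chemokine mean. None of them passed either (each adjusted p = 0.567).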

How the data were processed

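Spleen RNA was compared on 38 two-colour arrays. The authors printed an oligonucleotide library, removed spots of poor quality or low expression, subtracted local background and normalised with Lowess, per their methods. They deposited 1 signed score for each spot and array, and array medians ran from -3.16 to 3.95, so it is not known whether the scores are the Lowess values. Log2 ratios had been planned for, and these scores took their place without transformation. Blank, buffer and Alien spots (1235 of 23232) were left out, and spots of one probe were averaged. Names came from RefSeq genes of GRCm38.p6, used for names, neighbours and promoters.

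Arrays were centred and turned as described. In R 4.3.3, limma 3.58.1 (lmFit, eBayes, statmod 1.5.0) tested 6 strain values and 6 strain offsets against 0. It also tested the response within strains over arrays, with a dye offset per strain. The F test between strains used that fit over arrays. For each probe it set residual sums of squares with and without strain differences against limma's moderated variance. Adjustment was by Benjamini-Hochberg over all tested probes, with adjusted p under 0.05 as threshold. Probes needed 19 arrays and both orientations of every strain. No 2 arrays of a group were alike enough to be one hybridisation (highest r = 0.804). The scripts were tested on simulated data. The number of arrays limits the precision. The 50 members, the lists and the tests were chosen with earlier results of these data known.

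Genes were named by a rule, which took those passing any test. It also took the 4 ligands and 4 receptors with the smallest p over all strains and the 2 members with the smallest p between strains. Pairs on the arrays, the 2 most alike pairs, and 1 or 2 genes of each other list completed it. For the lists of B cells, T cells, NK cells, macrophages and monocytes, dendritic cells, red cell precursors, stroma and endothelium, and adipose tissue, the rule was not followed and no gene was named. Other genes given with values were chosen after their values were seen. Among them were Cxcl1, Cxcl2, Cxcl10, Ccl8, Ccl20, Cxcl9, further pancreatic markers and the members with large dye offsets. Alternatives were the values as deposited, scaling, no minimum or 30 arrays, unsettled arrays turned or left out, arrays as units, a trended robust fit, one dye offset, a single orientation, and each strain or array left out.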

Additional observations from a re-analysis of the deposited data

How the results depend on the processing

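No gene passed over all strains under any alternative that could be run, and 31 probes did with the values as deposited, where the median of all probes was 0.121. There the median over ligands was 0.202 and that over receptors 0.155. The median over receptors was -0.0535 with the unsettled arrays turned. Leaving out 1 array at a time gave 0.00111 to 0.102 for ligands and -0.00271 to 0.0787 for receptors. The count within strains was 1 and became 0 as deposited, after scaling and with one dye offset, and 0 to 8 with 1 array left out. Ccl28 in C3H/HeJ was then 1.04, 1.21 and 1.09 under those 3 settings, and 0.990 to 1.2 with 1 array left out. Between strains the count of 0 became 1 without the unsettled arrays. It was 2 in either orientation alone, where response and dye offset cannot be told apart. The dye offset count of 0 became 4 without B6.C and 3 without C3H/HeJ and was 0 with any 1 array left out. Reversed means were those of Ccl28 without C3H/HeJ (-0.0748), Ccr1l1 with the unsettled arrays turned (-0.0627) and Cxcr5 with arrays as units (-0.0141). The cause was not tested. With the unsettled arrays left out, Ccl6 and Ccr1l1 lacked a cell of the design and gave no value. No paired analysis was possible because the labels do not tell which arrays carry the same mice with exchanged dyes. Unknown scale and direction of the scores, 2 arrays per orientation in C57Bl6/J and DBA/2J, and 16 untested genes limit what the data can show.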
